A study of Mus musculus with 4 samples.

Results

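Conventional type 1 dendritic cells (cDC1) were picked out of 4 single-cell RNA sequencing libraries of mouse tibial muscle by the transcripts they carried. A cell was taken as a cDC1 when it held at least 1 UMI (unique molecular identifier, the tag that counts a captured transcript) of *Xcr1* or *Clec9a* and at least 10 UMIs summed over the MHC class II genes *H2-Aa*, *H2-Ab1* and *H2-Eb1*. It also had to hold 0 UMIs of *Cd209a*, a lectin gene of cDC2, of *Cd79a*, a B cell receptor gene, and of *Siglech*, a gene of plasmacytoid dendritic cells, and at most 10% of its UMIs could come from mitochondrial genes. The rule found 262 cDC1, 0.438% of the 59824 cells within the mitochondrial limit and part of 62665 deposited cells. By library these were 13 cells in Uninjured, 46 at 1 day post injury (dpi), 184 at 3 dpi and 19 at 7 dpi.

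cDC1 are a lineage of antigen-presenting cells whose development depends on the transcription factors IRF8 and BATF3 and on the growth factor FLT3L. They are known for cross-presentation, in which protein taken up from dying cells is loaded onto MHC class I and shown to CD8+ T cells. CLEC9A binds actin exposed on dead cells, and XCR1 is the receptor of the chemokine XCL1, which NK cells and CD8+ T cells release. The other conventional lineage, cDC2, depends on IRF4 and presents mainly on MHC class II to CD4+ T cells.

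All libraries came from C57BL/6 mice, 6 to 8 weeks old, of the genotype *Nse-Bmp4*, a model of heterotopic ossification in which the neuron specific enolase promoter drives the bone morphogenetic protein BMP4. The injured muscles had received cardiotoxin, a snake venom toxin that kills muscle fibres, and were taken at 1, 3 and 7 dpi. Uninjured muscle carried the same transgene, so no library shows cDC1 of mice without it. Each library pooled 3 muscles after collagenase digestion, and each condition was 1 library, so condition and library cannot be told apart and no p-value between time points was computed. Brackets after a value give exact 95% intervals that cover counting error only. A share of cells can also move because other cells became more or less numerous, which these data cannot separate from a change in cDC1 number.

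Pairs of libraries shared 30 to 95 cell barcodes out of the 11722 or more in each, so no library repeated another. The 262 cDC1 held 164616, 699816, 1689738 and 154801 UMIs in Uninjured, 1, 3 and 7 dpi, with a median per cell of 12712, 14497, 8243 and 8320. The Uninjured and 7 dpi values rest on far fewer transcripts than those of 3 dpi, and single cells weigh heavily there. A doublet caller scored 1, 6, 21 and 1 of the cDC1 among the top 7.5% of cells of their library, and 1, 4, 21 and 4 cDC1 had over 1% of their UMIs from marker genes of an unrelated cell type. These cells were kept, and the values that rest on them are given with their share.

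The label was checked against 14 markers that the rule did not use, among them *Irf8*, *Batf3*, *Naaa*, *Wdfy4* and *Flt3*. A cDC1 carried transcripts of 10, 11, 10.5 and 10 of these 14 genes at the median in Uninjured, 1, 3 and 7 dpi, against 3, 4, 3 and 2 in cDC2, the 1075 cells with the same MHC class II minimum, at least 1 *Cd209a* UMI and 0 UMIs of the other excluding or receptor genes. At least 3 of the 14 markers were found in 12 of 13, 46 of 46, 183 of 184 and 17 of 19 cDC1. *Cd8a*, a marker of splenic cDC1, had 0, 0, 13 and 1 UMIs in Uninjured, 1, 3 and 7 dpi and *Cd207*, the langerin gene, 0, 0, 1 and 0.

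Because free RNA can put a stray UMI into any droplet, the receptors were also counted in cells that should lack them. *Xcr1* or *Clec9a* UMIs occurred in 0% of B cells in Uninjured (median 2484 UMIs per cell), in 0.234% at 1 dpi (2938.5), 0.662% at 3 dpi (1975) and 0.562% at 7 dpi (1562.5). B cells were those with a *Cd79a* UMI and the MHC class II minimum. The ones with a receptor are thus the cells the rule left out for *Cd79a*, and whether some are cDC1 with a stray *Cd79a* UMI was not tested. In macrophages the share was 0, 0.721, 0.498 and 0%, at median depths of 8952, 7760.5, 5232 and 4344 UMIs. In cells that met the other terms of cDC2, the share was 2.48, 7.01, 1.67 and 0%, higher than in B cells in the first 3 libraries, and such cells were left out of both types. The receptors were seldom high in cDC1 either: the median cDC1 held 2, 2, 2 and 1 receptor UMIs, and 119 of the 262 cells passed with a single one. The 119 cells with 1 receptor UMI had 6101 CPM (UMIs scaled to a total of 1e+06 over the summed cells) of the 14 independent markers and the 143 cells with more had 6804 CPM. On the MHC class II side of the rule, the 11 cells just inside the limit, with 10 to 19 UMIs, had 2846 CPM of these markers and the 5 cells just outside, with 5 to 9, had 1017 CPM.

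The values that chose the cells are given as a description. *Xcr1* (chromosome 9, 123852315 to 123862029 on GRCm38) was found in 7 of 13, 22 of 46, 111 of 184 and 13 of 19 cDC1, at 42.5, 72.9, 112 and 109.8 CPM. *Clec9a* (chromosome 6, 129408862 to 129424763) was found in 12, 37, 132 and 11 cells, at 128, 123, 129.6 and 155 CPM. Both receptors together were seen in 6, 13, 59 and 5 cells. The 3 MHC class II genes gave 256, 238, 186.5 and 205 UMIs per cDC1 at the median, far above the minimum of 10. Of the cells with a receptor and the MHC class II minimum, 5, 13, 13 and 0 were left out for *Cd209a*, 0, 3, 1 and 1 for *Cd79a* and 0, 5, 15 and 0 for *Siglech*. With so few receptor transcripts per cell, some cDC1 escape the rule. Among MHC class II positive cells with neither a receptor nor an excluding gene, 4 of 173, 11 of 406, 72 of 848 and 5 of 573 carried at least 8 of the 14 markers, a level that 11 of 13, 40 of 46, 155 of 184 and 14 of 19 cDC1 reached. The level of 8 was chosen after the values had been seen.

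cDC1 made up 0.110% of cells in Uninjured (0.0585 to 0.188), 0.424% at 1 dpi (0.310 to 0.565), 1.30% at 3 dpi (1.123 to 1.504) and 0.0825% at 7 dpi (0.0497 to 0.129). The share was 3.86-fold higher at 1 dpi than in Uninjured (2.05 to 7.78), another 3.07-fold higher at 3 dpi (2.22 to 4.35) and then 15.8-fold lower at 7 dpi (9.83 to 26.8). The Uninjured and 7 dpi intervals overlapped. cDC2 took another course, with 1.67, 1.35, 4.18 and 0.617% of cells. Their share at 1 dpi was 0.808 times that of Uninjured (0.647 to 1.01), so the 1 dpi library held more cDC1 but not more cDC2 per cell, while at 3 dpi both types were about as many times higher, cDC2 3.11-fold (2.59 to 3.75). At 7 dpi cDC2 were 6.78-fold lower (5.63 to 8.198), an interval that lies below that of cDC1.

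**Figure D1:**
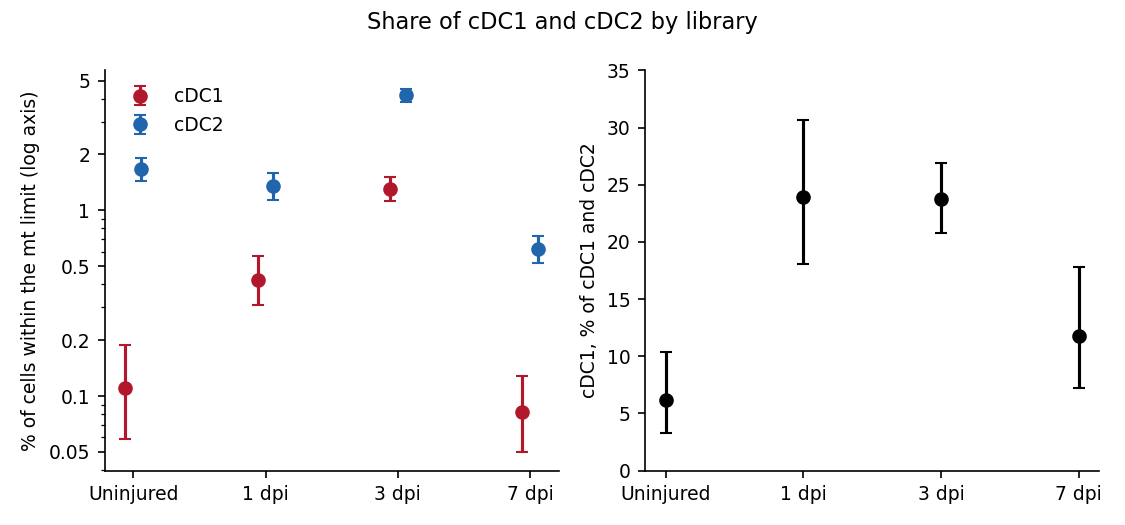
Left, share of cDC1 and cDC2 among cells within the mitochondrial limit in the 4 libraries, in percent on a log axis; right, cDC1 as percent of cDC1 and cDC2 together. Points are single libraries and bars are exact 95% intervals of counting error; cDC1 rise from 0.110% to 1.30% at 3 dpi and are at 0.0825% at 7 dpi.

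Of all conventional dendritic cells found, cDC1 were 6.19% in Uninjured (3.34 to 10.4), 24.0% at 1 dpi (18.1 to 30.6), 23.8% at 3 dpi (20.8 to 26.9) and 11.8% at 7 dpi (7.26 to 17.8). The 1 and 3 dpi intervals lie above that of Uninjured. The median depth of all cells fell from 8629 UMIs in Uninjured to 3083 at 7 dpi, and a receptor seen as 1 or 2 UMIs is missed more often in shallow cells. Cells with at least 2000 UMIs were therefore thinned at random to 2000, and shallower cells were left out. This kept 11271 of 11827, 9885 of 10853, 11073 of 14118 and 16120 of 23026 cells. Among them cDC1 were 0.0444, 0.202, 0.614 and 0.0558%, still highest at 3 dpi, with Uninjured now below 7 dpi. These shares rest on 5, 20, 68 and 9 cDC1, and the intervals of Uninjured and 7 dpi overlapped. Of conventional dendritic cells cDC1 were then 3.52% (1.15 to 8.03), 16.3% (10.2 to 24.0), 13.4% (10.6 to 16.7) and 10.7% (5.02 to 19.4), and the interval of 7 dpi overlapped all others.

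cDC1 were compared with cDC2 of the same libraries by edgeR's quasi-likelihood test on UMIs summed per type and library, with the library as a block and the 8 genes of the rule left out. This compares cell types over 4 libraries, not conditions. Of the cDC2, 29 of 197 in Uninjured, 9 of 146 at 1 dpi, 69 of 590 at 3 dpi and 51 of 142 at 7 dpi had over 1% of UMIs from markers of an unrelated type. These cDC2 were kept too. Because the types were split by *Xcr1*, *Clec9a* and *Cd209a*, genes known to go with these were bound to differ, and their counts describe the cells chosen. Of 9448 genes tested, 511 (5.41%) were higher in cDC1 and 729 (7.72%) lower at a Benjamini-Hochberg adjusted p under 0.05, and 1117 of these 1240 went the same way in all 4 libraries. Without the block 225 were higher and 309 lower. Leaving out the 1 dpi library gave 242 higher and 365 lower, and leaving out 3 dpi gave 269 higher and 493 lower.

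Of 21 identity genes of the lineage, 17 could be tested and 16 were higher in cDC1 at the 5.41% background, with a median log2 fold change of 2.91 against -0.03 over all genes tested. *Nfil3*, a transcription factor gene that acts early in the lineage, was the exception (log2 fold change -0.41, edgeR adjusted p = 0.269), and *Clnk*, *Cd8a*, *Cd207* and *Tlr12* had too few UMIs. *Irf8* (chromosome 8, 120736358 to 120756694) had 1592, 1789, 1820.4 and 1815 CPM in cDC1 of Uninjured, 1, 3 and 7 dpi and 28.5, 62.5, 73.3 and 24.4 CPM in cDC2. No library of either type came near the levels of the other (log2 fold change 5.24 ± 0.24 SE, edgeR adjusted p = 1.2e-07, higher in 4 of 4 libraries). *Batf3*, its partner in this lineage, differed less, with 243, 259, 233 and 233 CPM against 139, 69.8, 55.8 and 89.8 (log2 fold change 1.56 ± 0.21 SE, edgeR adjusted p = 0.000307). *Id2*, a repressor of E proteins in dendritic cell development, had 674, 952, 1216 and 988 CPM against 178, 184, 213 and 148 (log2 fold change 2.36 ± 0.15 SE, edgeR adjusted p = 1.23e-06). In cDC1 *Irf8* and *Batf3* were much the same in all 4 libraries, and *Id2* was lowest in Uninjured and highest at 3 dpi.

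**Figure D2:**
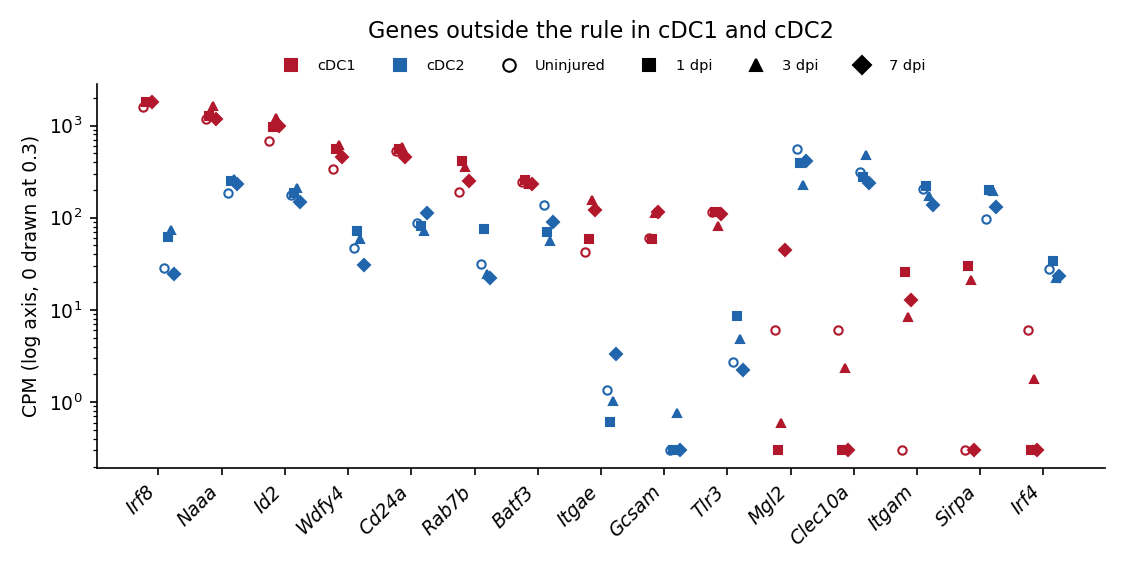
CPM (log axis, 0 drawn at 0.3) of 15 genes outside the rule in cDC1 (red) and cDC2 (blue), with 1 marker shape per library. The first 10 are genes of cDC1 identity and the last 5 genes of cDC2; in none of the 15 genes do the libraries of the 2 types overlap.

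The genes with the largest differences in favour of cDC1 began with *Gcsam* (chromosome 16, 45610380 to 45622867), a signalling adaptor known from germinal centre B cells. It had 60.7, 58.6, 112 and 116 CPM in cDC1 and 3 UMIs in all cDC2 together, all at 3 dpi (log2 fold change 7.69 ± 0.43 SE, edgeR adjusted p = 4.76e-07). *Snx22*, a sorting nexin gene, followed with 66.8, 64.3, 92.3 and 45.2 CPM against 0.452, 1.23, 0.515 and 1.11 (log2 fold change 6.52 ± 0.38 SE, edgeR adjusted p = 7.04e-07). *Itgae*, the CD103 integrin chain that binds E-cadherin, had 42.5, 58.6, 154 and 123 CPM against 1.35, 0.613, 1.03 and 3.33 (log2 fold change 6.17 ± 0.37 SE, edgeR adjusted p = 7.47e-07). *Itgae* was 2.64-fold (1.89 to 3.76) higher at 3 dpi than at 1 dpi and was seen in 23.1, 28.3, 59.2 and 36.8% of cDC1. *Cadm1*, an adhesion gene of the lineage, went the same way, from 8.57 CPM (3.15 to 18.7) at 1 dpi to 41.4 CPM (32.3 to 52.3) at 3 dpi, with 0 UMIs in Uninjured. Of the other genes at the top, *Gramd2* had 18.2, 14.3, 58.6 and 45.2 CPM, *Sema4f* 6.07, 20.01, 42.6 and 19.4 CPM, *Gpr141b*, an orphan receptor, 18.2, 45.7, 62.7 and 19.4 CPM and the chemokine receptor *Cxcr3* 30.4, 20.01, 47.9 and 45.2 CPM, each at under 5 CPM in every cDC2 library. *Gm43914* and *Gm38410*, gene models without a known role, completed the 10.

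At the other end, 8 of the 10 genes had 0 UMIs in all 262 cDC1, so only a bound can be given, against a floor of 3 UMIs over the group. *Il1rl1*, the receptor of IL-33, had 29.8, 21.4, 34.2 and 29.9 CPM in cDC2 and was at least 27.3-fold lower in cDC1. The bound was 22.4-fold for *Sirpb1a*, 18.0-fold for *Fxyd7*, 18.2-fold for *Kcne3*, 14.3-fold for *Cdh1*, 10.8-fold for *Siglece*, 10.4-fold for *Ngfr* and 10.9-fold for *Cd209c*. *Clec10a*, a lectin receptor of cDC2, had 315, 276, 478 and 235 CPM in cDC2 and 5 UMIs in all cDC1 (log2 fold change -7.73 ± 0.35 SE, edgeR adjusted p = 1.2e-07). *Retnla*, known from type 2 responses, had 2273, 53.3, 47.9 and 105 CPM in cDC2 and 2 UMIs in cDC1. Of 9 cDC2 genes tested, 8 were lower, at a background of 7.72%, among them *Irf4* (-4.08), *Sirpa* (-3.26), *Itgam* (-3.89) and *Mgl2* (-6.33, log2 fold changes). Of 13 monocyte and macrophage genes tested, 10 were lower and 0 higher, such as *Csf1r* (-3.22), the receptor of CSF1, *Cd14* (-2.97) and *Lyz2* (-1.99). The terms for cDC2 did not exclude monocytes or macrophages, and cDC2 held 6645, 3486, 2840 and 5486 CPM of this list. Whether such cells are among the cDC2, and their part in this and later comparisons, was not tested.

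Genes with which dendritic cells sense growth factors were split between the types. *Flt3*, the FLT3L receptor, was higher in cDC1 (log2 fold change 1.08 ± 0.19 SE, edgeR adjusted p = 0.00205), at 152, 146, 215 and 77.5 CPM, and *Kit*, the receptor of stem cell factor, likewise (log2 fold change 2.0 ± 0.24 SE, edgeR adjusted p = 0.000145). *Csf2ra* and *Csf2rb*, the 2 chains of the GM-CSF receptor, were lower (log2 fold changes -0.72 and -0.94). *Btla* (2.90), an inhibitory receptor, *Ly75* (2.59), the uptake receptor DEC-205, and *Dpp4* (0.84) were higher too, which made 5 of 10 conventional dendritic cell genes higher and 2 lower, where 5.41% and 7.72% of all genes were. *Flt3* in cDC1 was 2.77-fold (1.57 to 5.41) lower at 7 dpi than at 3 dpi.

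Among 13 sensing and uptake genes tested, 4 were higher and 2 lower, against 5.41 and 7.72% of all genes. *Tlr3*, which senses double-stranded RNA, had 115, 114, 81.7 and 109.8 CPM in cDC1 and 2.71, 8.58, 4.89 and 2.22 CPM in cDC2 (log2 fold change 4.31 ± 0.30 SE, edgeR adjusted p = 2.28e-06). *Tlr11*, a receptor of microbial profilin, had 6.07, 15.7, 28.4 and 0 CPM against 2.71, 3.06, 0.257 and 0 (log2 fold change 3.55 ± 0.77 SE, edgeR adjusted p = 0.00996), a call that DESeq2 did not make (adjusted p = 0.0583). *Havcr2*, which encodes TIM-3, had 54.7, 17.1, 72.2 and 32.3 CPM against 4.52, 11.6, 13.1 and 4.44 (log2 fold change 2.19 ± 0.39 SE, edgeR adjusted p = 0.00259). The bacterial lipoprotein receptor *Tlr2* (-2.01) and the cytosolic RNA sensor *Ddx58* (-1.94) were lower. *Havcr2* also moved in time, 4.21-fold (2.32 to 8.37) higher at 3 dpi than at 1 dpi.

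For antigen presentation, of 16 class I and cross-presentation genes, 7 were higher in cDC1 and 3 lower, and of 10 class II pathway genes outside the rule, 1 was higher and 5 lower, where 5.41% of all genes were higher and 7.72% lower. The difference between these lists was not tested. *Wdfy4*, a gene required for cross-presentation by cDC1, had 334, 552, 621 and 459 CPM against 47.0, 71.1, 59.2 and 31.1 (log2 fold change 3.20 ± 0.19 SE, edgeR adjusted p = 7.47e-07). The immunoproteasome subunits *Psmb9* (2.05) and *Psmb8* (1.44), the peptide transporter chains *Tap2* (1.54) and *Tap1* (1.06), the loading factor *Tapbp* (0.60) and the trafficking gene *Rab43* (1.34) were higher by these log2 fold changes. *Psmb8* had 1336, 1223, 1038 and 1008 CPM in cDC1 and 425, 452, 376 and 405 CPM in cDC2. The class I molecule itself did not follow: *B2m* (-0.47), *H2-K1* (-0.64) and *H2-D1* (-0.52) were the 3 genes that were lower. The classical class I genes are close relatives, so counts of each are less certain.

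**Figure D3:**
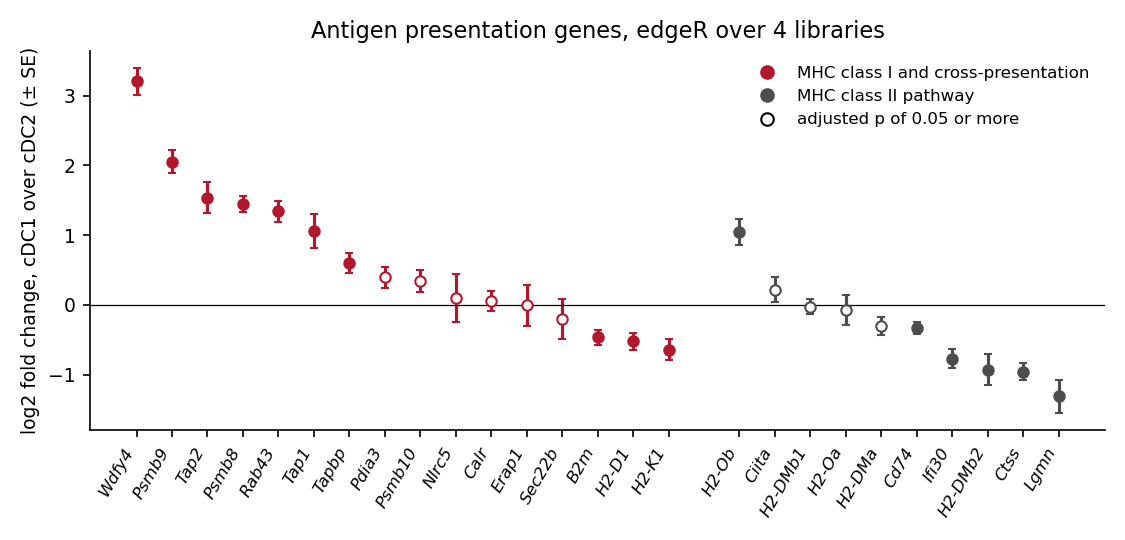
Log2 fold change of cDC1 over cDC2 with its SE from edgeR over 4 libraries for 16 MHC class I and cross-presentation genes (red) and 10 MHC class II pathway genes (grey), open where the adjusted p is 0.05 or more. *Wdfy4*, *Psmb8*, *Psmb9*, *Tap1* and *Tap2* lie above 0, while *B2m*, *H2-K1*, *H2-D1* and most class II pathway genes called lie below it.

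On the class II side, *Cd74*, the invariant chain, had 17629, 12102, 13039.9 and 15717 CPM in cDC1 and 23841, 16634, 16664 and 15474 CPM in cDC2 (log2 fold change -0.33 ± 0.09 SE, edgeR adjusted p = 0.0266, lower in 3 of 4 libraries). The lysosomal enzymes *Lgmn* (-1.31), *Ctss* (-0.96) and *Ifi30* (-0.77), which cut and reduce antigen, and the loading gene *H2-DMb2* (-0.93) were lower. *H2-Ob*, a subunit of the inhibitor of class II loading, was the gene that was higher (log2 fold change 1.05 ± 0.19 SE, edgeR adjusted p = 0.00241), at 78.97, 87.2, 107 and 109.8 CPM against 42.9, 40.4, 54.8 and 39.9.

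Of 10 chemokines, 0 were higher and 6 lower than in cDC2. For this and the next lists, 5.41% of all genes were higher and 7.72% lower. *Ccl17*, a ligand of CCR4, had 0, 1.43, 1.18 and 0 CPM against 7.23, 52.1, 152 and 13.3 (log2 fold change -6.50 ± 0.45 SE, edgeR adjusted p = 1.99e-06), and *Ccl9* had 6.07, 48.6, 13.0 and 71.1 CPM against 369, 582, 455 and 395 (log2 fold change -4.09 ± 0.35 SE, edgeR adjusted p = 9.86e-06). *Cxcl10*, *Ccl2*, *Ccl3* and *Ccl22* were the others, by -1.72, -2.24, -1.90 and -1.90 on the log2 scale. *Ccl2*, *Ccl3* and *Ccl22* were each lower in 3 of 4 libraries, and *Ccl2* at 3 dpi had 317 CPM in cDC1 and 296 CPM in cDC2. *Ccl4*, an inflammatory chemokine, was not called (log2 fold change -0.17, edgeR adjusted p = 0.409) and had 3293, 2388, 2689 and 2125 CPM in cDC1. Of 9 costimulatory and checkpoint genes, *Havcr2* was higher and 5 were lower, such as *Tnfsf9* (-3.89), *Cd80* (-2.94) and *Cd40* (-1.72), while *Cd86* was not called (0.03). Of 9 cytokines, *Tnf* (-3.07) and *Tgfb1* (-0.58) were lower. *Il12b*, the cytokine subunit for which mature cDC1 are known, had 0, 0, 5 and 0 UMIs in Uninjured, 1, 3 and 7 dpi and could not be tested. *Il1b*, at 1124, 734, 569 and 1279 CPM in cDC1, was not called (log2 fold change -0.47, edgeR adjusted p = 0.187).

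Of 10 homing receptors, *Cxcr3*, the receptor of the interferon-induced chemokines CXCL9 and CXCL10, was higher (log2 fold change 4.51 ± 0.46 SE, edgeR adjusted p = 3.68e-05). *Ccr2*, a receptor that guides monocytes and their kin to inflamed tissue, was lower (log2 fold change -0.79), with 395, 366, 237 and 181 CPM against 474, 588, 440.0 and 436, and so was *Cx3cr1* (-2.86). Of 15 maturation and migration genes, 0 were higher and 8 lower. The rule misses cDC1 without a receptor UMI, and whether mature cDC1 are more common among those was not tested. The same limit applies to the chemokine, costimulatory and cytokine lists above. Of 13 immediate early and heat shock genes, which respond within minutes to tissue digestion among other stimuli, 0 were higher and 6 lower, such as *Egr1* (-1.36) and *Junb* (-0.95). Of 13 glycolysis genes, *Ldha* was higher (0.67) and *Eno1* (-0.91) and *Hk2* (-0.80) lower, where 5.41% of all genes were higher and 7.72% lower.

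Of 12 genes of mitosis, 6 were higher in cDC1 and 0 lower. A single cell gave 61.5, 29.6, 20.9 and 59.7% of the cDC1 UMIs of this list in Uninjured, 1, 3 and 7 dpi. *Top2a*, the topoisomerase of dividing cells, had 188, 147, 132 and 129 CPM against 41.5, 33.7, 69.0 and 83.2 (log2 fold change 1.43 ± 0.25 SE, edgeR adjusted p = 0.00187), and *Ube2c* had 200.5, 100.03, 112 and 123 CPM against 72.3, 39.8, 66.1 and 92.1 (log2 fold change 0.97 ± 0.19 SE, edgeR adjusted p = 0.00487). *Mki67*, *Cdk1*, *Hmmr* and *Kif11* were higher as well. Of 12 DNA replication genes 1 was higher, where 5.41% of all genes were. It was *Mcm7*, a subunit of the replicative helicase (log2 fold change 1.10 ± 0.23 SE, edgeR adjusted p = 0.00754). Counted per cell after thinning to 1000 UMIs, 15.4% of cDC1 in Uninjured (2 of 13), 10.9% at 1 dpi (5 of 46), 9.29% at 3 dpi (17 of 183) and 11.1% at 7 dpi (2 of 18) carried at least 2 UMIs of the mitosis genes. In cDC2 the shares were 5.58, 4.20, 5.91 and 7.75%, and in macrophages 1.94, 0.971, 2.05 and 9.26%. The cDC1 share was above that of cDC2 in each of the 4 libraries, but the intervals of the 2 types overlapped in all 4, and so did those of cDC1 between libraries. Cells were thinned after the rule had chosen them, so depth may still bear on which cells are compared. Without thinning, 23.1, 26.1, 27.7 and 21.1% of cDC1 carried 2 such UMIs, and these 70 cells had 1377 CPM of *Irf8* where the other 192 had 2065 CPM, at median depths of 13056 and 8423.5 UMIs.

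Between time points the measure was the CPM of a gene over all cDC1 of a library, called when it changed over 2-fold among genes with at least 30 UMIs in the pair. From Uninjured to 1 dpi, 22.3% of 3747 genes were called higher and 2.32% lower, with the median gene 0.31 higher on the log2 scale, so changes are read against that shift. The filter is met mainly through the library with more cDC1 UMIs. With cells of at least 2000 UMIs thinned to 2000, the 835 higher and 87 lower genes of this step were 31 and 18. Those sums held 5 cDC1 of Uninjured and 20 of 1 dpi, so fewer genes could reach 30 UMIs. The share of tested genes called is not known there, so the thinned counts do not show how many changes hold at equal depth. From 1 to 3 dpi, 7.55% of 7188 genes were called higher and 2.57% lower (median 0.01). From 3 to 7 dpi, 3.32% of 6411 genes were higher and 19.1% lower (median -0.25). Thinned, the 213 higher and 1227 lower genes were 35 and 107, with the same limit. Genes are ranked below within limits. A gene needed 50 or more UMIs where it was higher, 5 or more where it was lower, and a CPM in cDC1 no lower than that over all cells of the library where it was higher. This leaves out genes with larger ratios on fewer UMIs and genes lower in cDC1 than over all cells of that library. Genes of other cell types can still pass, as *Gzma* of the T and NK cell list did at 7 dpi. Without the cells that held over 1% of foreign transcripts, the 543 genes called higher at 3 dpi were 259.

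Type I interferon induced genes, which interferon alpha and beta switch on, were highest in cDC1 at 1 dpi. Their summed level in cDC1 was 1106 CPM (951 to 1278) in Uninjured, 3601 CPM (3462 to 3744) at 1 dpi, 2006 CPM (1939 to 2075) at 3 dpi and 1273 CPM (1101 to 1463) at 7 dpi. The sum was 3.26-fold (2.80 to 3.81) higher at 1 dpi, then 1.79-fold (1.70 to 1.89) lower at 3 dpi and 1.58-fold (1.37 to 1.83) lower at 7 dpi. The sum takes in all 16 members, and since several had under 10 UMIs in Uninjured, members over 2-fold are not counted for the first step. *Ifit1* had 36.4, 17.1, 32.0 and 6.46 CPM and was not higher at 1 dpi. cDC2 showed a like step, with a ratio of 3.47 (3.34 to 3.61), from 1597, 5548, 2061 and 2081 CPM over the 4 libraries. Over all cells of the libraries the sum was 1170, 3601, 1223 and 649 CPM, again with a first step of like size. The rise was spread over the cells: per cDC1, the median was 499, 3030, 1394 and 605 UMIs of these genes at a total of 1e+06 per cell, and the lowest of the 46 cells at 1 dpi still had 235.

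**Figure D4:**
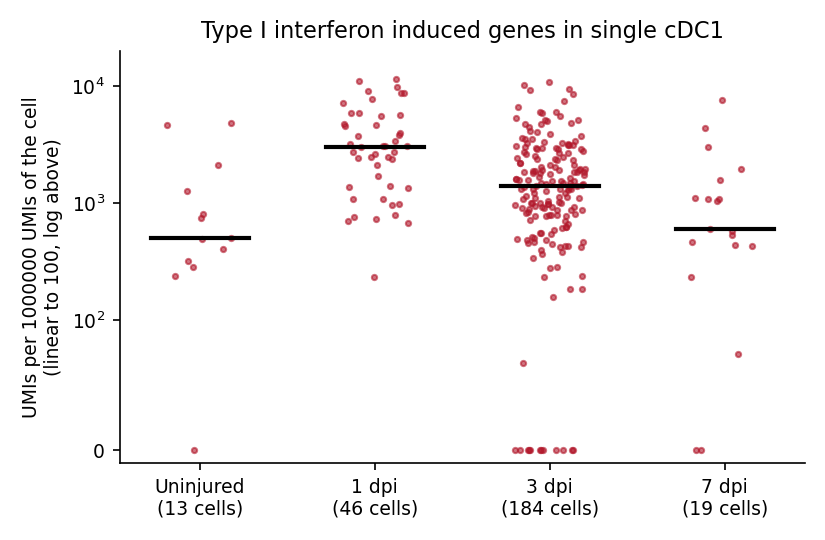
UMIs of 16 type I interferon induced genes in each cDC1, scaled to a total of 1e+06 per cell (vertical axis linear to 100 and logarithmic above), 1 point per cell and 1 column per library, with bars at the medians. The median is 3030 at 1 dpi, against 499 in Uninjured and 605 at 7 dpi, and no cell at 1 dpi is at 0.

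*Ifi27l2a*, a short interferon-induced gene, had 298, 1398, 339 and 200.3 CPM, 4.69-fold (3.52 to 6.39) higher at 1 dpi and 4.12-fold (3.71 to 4.58) lower at 3 dpi. *Irf7*, which amplifies interferon production, had 85.0, 347, 194 and 161 CPM, 4.08-fold (2.39 to 7.58) higher at 1 dpi. Both genes peaked at 1 dpi, while *Ifit2*, which binds viral RNA, stayed high, with 30.4, 190.1, 170.4 and 109.8 CPM and a ratio of 6.26-fold (2.62 to 19.6) at the first step and 0.897 (0.728 to 1.11) at the second. *Rsad2*, the antiviral enzyme viperin, was still higher at 3 dpi, with 6.07, 51.4, 129 and 142 CPM and 2.51-fold (1.76 to 3.67) over 1 dpi. At 7 dpi 1 cell gave 82.4% of the *Ifit2* and 63.6% of the *Rsad2* UMIs. *Isg15*, a ubiquitin-like modifier, stayed within 2-fold at 1 dpi, with 249.1, 337, 439.7 and 258 CPM. *Slfn5*, a further gene known to be induced by interferon, outside the list, was among the 5 genes with the largest rise at 1 dpi within the limits given above, with 158, 703, 563 and 284 CPM (4.45-fold, 3.00 to 6.88). Between the types the list had no common direction: *Ifi44*, *Irf7* and *Ifit2* were among the 4 of 16 genes higher in cDC1, where 5.41% of all genes were, and *Oasl2*, *Oas1a*, *Rtp4*, *Ifit1*, *Ifit3* and *Ifi27l2a* were lower, where 7.72% were.

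Many interferon induced genes carry, near their start sites, the interferon-stimulated response element, in which the letters GAAA repeat. The letters GAAA, any 2 bases and GAAA again, read on both strands, were searched in the 250 bases before and 50 after the start of 27025 genes (RefSeq starts, GRCm38), and 3.99% of these windows held them. Of the type I interferon list 12 genes had a window and 7 (58.3%) held the letters, and of 10 interferon gamma induced genes 8 (80%) did. In the cDC1 identity genes it was 2 of 16, in the class I genes 2 of 14 and in glycolysis genes 0 of 13. *Rsad2*, *Stat2* and *Bst2* are shown as examples, chosen after their values were seen, that held the letters and were over 2-fold higher in cDC1 at 1 dpi, *Rsad2* from 1 UMI in Uninjured. *Isg15*, *Ifit1* and *Ifit3* also held the letters and were not over 2-fold higher, and *Oas1a* held them with 0 UMIs in Uninjured. *Ifit2*, *Irf7* and *Ifi44* had windows without the letters and were over 2-fold higher at 1 dpi, from 5, 14 and 2 UMIs in Uninjured. *Stat2* had 30.4, 134, 141 and 58.1 CPM and *Bst2*, the virus tether tetherin, 273, 622, 301 and 187 CPM. *Bst2* was 2.27-fold (1.67 to 3.16) higher at 1 dpi and 2.06-fold (1.81 to 2.35) lower at 3 dpi. The 250 bases before each start are printed 5′ to 3′ in the direction of the gene, with the matching letters in capitals, on the + strand of the gene for *Bst2*, where 2 matches overlap, and on the other strand for *Rsad2* and *Stat2*. A match of letters is a description of the window and does not show that a factor binds there. The windows are chr12:26456453-26456702 (- strand) for *Rsad2*, with the match 120 bases before the start, chr10:128270248-128270497 (+ strand) for *Stat2*, 222 bases before it, and chr8:71537473-71537722 (- strand) for *Bst2*, 130 bases before it.
Rsad2: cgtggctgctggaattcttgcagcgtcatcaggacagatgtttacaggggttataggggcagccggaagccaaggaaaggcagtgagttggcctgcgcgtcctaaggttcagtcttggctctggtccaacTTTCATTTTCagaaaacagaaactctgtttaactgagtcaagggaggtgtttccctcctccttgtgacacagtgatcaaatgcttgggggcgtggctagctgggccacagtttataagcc
Stat2: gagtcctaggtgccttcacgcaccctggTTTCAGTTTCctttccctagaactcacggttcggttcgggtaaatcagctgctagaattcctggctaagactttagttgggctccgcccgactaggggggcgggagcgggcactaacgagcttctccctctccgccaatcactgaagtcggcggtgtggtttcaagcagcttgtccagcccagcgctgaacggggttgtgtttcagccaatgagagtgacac
Bst2: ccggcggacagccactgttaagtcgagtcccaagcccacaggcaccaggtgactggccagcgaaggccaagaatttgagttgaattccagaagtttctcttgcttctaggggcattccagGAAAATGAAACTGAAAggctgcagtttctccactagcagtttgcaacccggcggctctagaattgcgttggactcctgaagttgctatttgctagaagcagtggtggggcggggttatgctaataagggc

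Interferon gamma induced genes moved less in cDC1, and 3 of 13 tested, *Gbp7*, *Gbp3* and *Irf1*, were lower than in cDC2, where 7.72% of all genes were. Their sum was 334, 530.1, 600.1 and 484 CPM, 1.59-fold (1.19 to 2.15) higher at 1 dpi, and 3 members could be measured at that step. *Ciita*, the switch of MHC class II transcription, led it at 200.5, 207, 290.0 and 245 CPM. *Irf1* (42.5, 127, 71.6 and 71.1 CPM) and *Irgm1* (6.07, 97.2, 54.4 and 51.7 CPM) had their highest level at 1 dpi, *Irgm1* against 1 UMI in Uninjured. *Cxcl9*, the chemokine that interferon gamma induces most specifically, had 7, 0, 129 and 11 UMIs and came from few cells, 7.69, 0, 9.24 and 10.5% of cDC1.

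DNA replication genes also peaked at 1 dpi. Their sum was 286, 929, 581 and 478 CPM, 3.25-fold (2.42 to 4.47) higher at 1 dpi and 1.60-fold (1.45 to 1.77) lower at 3 dpi. Most members had few UMIs in Uninjured, so no count of members over 2-fold is given for the first step. In cDC2 the ratio was 1.65 (1.48 to 1.83). Over all cells of the libraries the sum was 225, 702, 733 and 423 CPM, a first step of like size. *Pcna*, the sliding clamp, was found in 61.5, 84.8, 52.7 and 47.4% of cDC1 at 72.9, 207, 162 and 136 CPM, and *Mcm5* in 7.69, 56.5, 25.5 and 15.8% at 12.1, 101.5, 46.8 and 19.4 CPM. *Mcm3*, *Mcm5*, *Mcm6* and *Mcm7* were over 2-fold lower at 3 dpi, 4 of 12 members where 2.57% of all genes were. In Uninjured 1 cell gave 61.7% of this list, and without the cell that held most of it in each library the first step was 2.78 on the log2 scale. Thinned to 2000 UMIs per cell, the first step of the sum was smaller, 0.52 on the log2 scale against 1.70. *Timeless*, a replication fork gene, was among the 5 genes that fell most from 1 to 3 dpi within the same limits, with 6.07, 74.3, 27.2 and 12.9 CPM (2.73-fold, 1.80 to 4.15). *Dck*, which makes nucleotides by salvage, was among the 5 that rose most at 1 dpi within those limits, with 30.4, 151, 91.7 and 32.3 CPM (4.99-fold, 2.07 to 15.7). Mitosis genes had 899, 749, 836 and 769 CPM, but 1 cell gave 61.5% of their UMIs in Uninjured and 59.7% at 7 dpi. Without the leading cell of each library their log2 ratios from one library to the next were 0.53, 0.33 and -1.0 instead of -0.26, 0.16 and -0.12, so no course over time is read from them.

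Of the 5 genes that fell most at 1 dpi within the limits above, 3 were histone genes. *Hist1h2ap* had 2089.7, 562, 267 and 310.1 CPM, 3.72-fold (3.21 to 4.31) lower at 1 dpi, *Hist1h2ae* 1021, 334, 143 and 239 CPM and *Hist1h2bc* 778, 82.9, 34.9 and 116 CPM, 9.38-fold (6.83 to 13.0) lower. In Uninjured 1 cell of 13 gave 47.4, 48.2 and 49.2% of these UMIs, and the histone genes are near-identical copies, so counts of single members are less certain. *Dusp2*, a phosphatase gene of activated leukocytes, fell from 364 CPM (278 to 469) to 74.3 CPM (55.5 to 97.4) (4.91-fold, 3.33 to 7.25), and *Rgs1*, a brake on chemokine receptor signalling, from 407 CPM (315 to 517) to 130.0 CPM (105 to 159.7) (3.13-fold, 2.25 to 4.34). Both stayed at the lower level, *Dusp2* with 62.1 and 96.9 CPM and *Rgs1* with 121 and 84.0 CPM at 3 and 7 dpi. Within these limits the largest rise at 1 dpi, of the lipid carrier *Fabp5* (48.6, 339, 87.0 and 45.2 CPM), came to 84.0% from 1 cell and describes that cell. *Pbrm1*, a chromatin remodelling gene, rose with 30.4, 143, 112 and 51.7 CPM (4.70-fold, 1.95 to 14.8) and was found in 30.8, 76.1, 57.6 and 26.3% of cells.

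From 1 to 3 dpi the genes that rose most within these limits were *Cadm1*, *Havcr2*, *Gramd2*, *Pkp3* and *Cxcl16*, of which *Cadm1*, *Havcr2* and *Gramd2* were also higher in cDC1 than in cDC2, *Cadm1* in 3 of 4 libraries and without a call by DESeq2 (adjusted p = 0.0556). *Cadm1* was 4.83-fold (2.11 to 13.6) higher, *Gramd2* 4.10-fold (2.14 to 8.81), the desmosome gene *Pkp3* 3.77-fold (1.89 to 8.54) and *Cxcl16*, a transmembrane chemokine, 3.71-fold (2.30 to 6.31). At 1 dpi 1 cell gave 47.4% of the *Cxcl16* UMIs. It was found in 45.1% of cDC1 at 3 dpi and in 15.2% at 1 dpi. The identity list as a whole summed to 5935, 7048, 8182 and 6744 CPM, highest at 3 dpi, and 2 of 17 members, *Cadm1* and *Itgae*, were called higher at 3 dpi, where 7.55% of all genes were. Besides *Fabp5* and *Timeless*, the genes that fell most within these limits were *Rtl8b* (188, 78.6, 26.6 and 38.8 CPM), *Hist1h4d* (188, 107, 39.7 and 45.2 CPM) and *Usp18* (6.07, 97.2, 40.2 and 38.8 CPM), the protease that removes ISG15. Thinned to 2000 UMIs, *Usp18* turned, to a log2 ratio of 0.40 against -1.27.

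At 7 dpi the 2 largest rises within these limits were those of *Gzma* and *Peg3*, and single cells gave 100% and 96.3% of their UMIs. *Klf2*, a regulator of lymphocyte and monocyte quiescence and egress, was different: it had 2898, 1025, 599 and 2203 CPM, was found in 100, 95.7, 77.2 and 94.7% of cDC1 and was 3.68-fold (3.24 to 4.16) higher at 7 than at 3 dpi. Its level was thus high in Uninjured and 7 dpi and low at 3 dpi, in cDC2 as well, at 2426, 778, 479.9 and 1298 CPM. *Taf10*, a subunit of the general transcription factor TFIID, had the same course with 249.1, 95.7, 98.2 and 323 CPM, and so had *Fosb*, an immediate early gene, with 1045, 600.2, 472 and 1331 CPM. The immediate early and heat shock list summed to 24542, 18411, 14062 and 20304 CPM, lowest at 3 dpi. *Stat3* fell from 207 CPM (186 to 230.0) at 3 dpi to 45.2 CPM (18.2 to 93.2) at 7 dpi, 4.58-fold (2.20 to 11.5) lower, after 72.9 CPM (37.7 to 127) in Uninjured. *Fdps*, an enzyme of sterol synthesis, was 4.37-fold (2.10 to 10.96) lower, the interferon-inducible *Ifi203* 3.77-fold (1.71 to 10.4), the G protein subunit *Gng12* 3.68-fold (1.55 to 11.5) and the RNA-binding *Pum2* 3.66-fold (1.54 to 11.4). These 5 falls rest on 5 to 7 UMIs each in the 7 dpi library, and *Ifi203* belongs to a family of near copies.

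**Figure D5:**
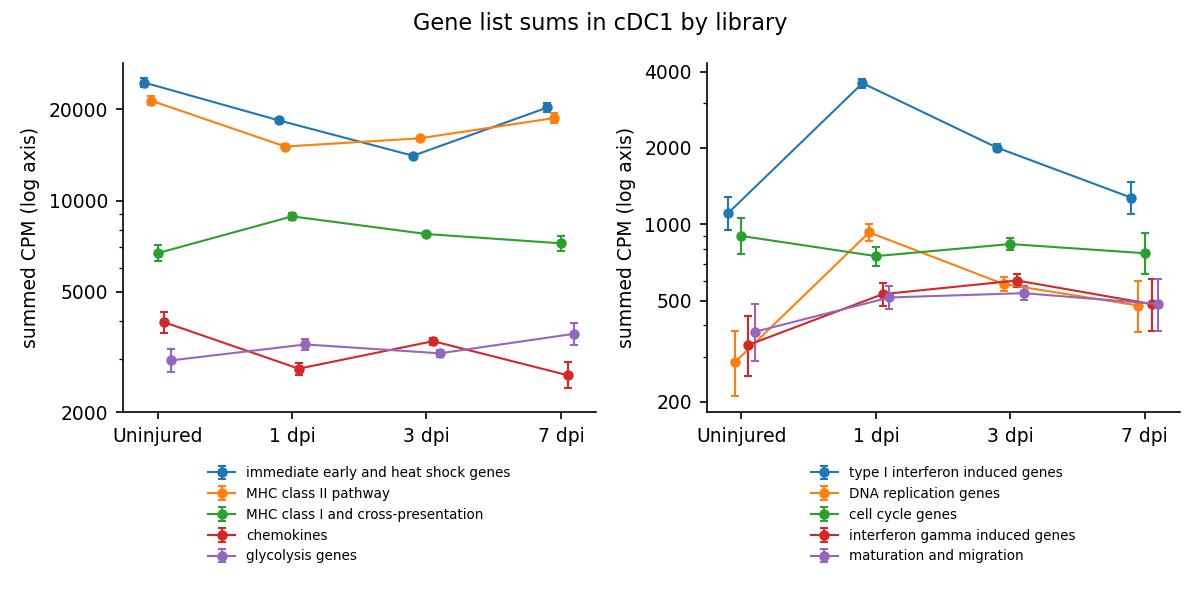
Summed CPM (log axis) of 10 gene lists in cDC1 of the 4 libraries, with exact 95% Poisson intervals that cover counting error only. Type I interferon induced genes peak at 3601 CPM and DNA replication genes at 929 CPM at 1 dpi, while mitosis genes (cell cycle genes in the legend) lie between 749 and 899 CPM, with 61.5% of the Uninjured and 59.7% of the 7 dpi UMIs from 1 cell each.

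The remaining lists of dendritic cell functions moved by less than 2-fold as sums. Conventional dendritic cell genes had 1227, 1225, 1331 and 1163 CPM and cDC2 genes 711, 572, 374 and 698 CPM. The MHC class II pathway had 21395, 15084, 16058 and 18734 CPM, lowest at 1 dpi, and class I genes 6700.4, 8868, 7752 and 7222 CPM, highest at 1 dpi. At that step *B2m*, the light chain of class I, was 2.11-fold (1.74 to 2.58) higher, *Tapbp* 2.25-fold (1.54 to 3.40) and the loading chaperone *Calr* 3.26-fold (2.44 to 4.45), 3 of 13 class I genes measured, a share near the 22.3% of all genes at this step. Chemokines summed to 3961, 2784, 3431 and 2649 CPM and cytokines to 1312, 939, 804 and 1466 CPM, led by *Il1b* at 1124, 734, 569 and 1279 CPM. Costimulatory and checkpoint genes had 796, 697, 733 and 698 CPM, homing receptors 1045, 1129, 752 and 652 CPM, sensing and uptake genes 516, 510.1, 691 and 510.3 CPM, maturation genes 377, 514, 535 and 484 CPM and glycolysis genes 2964, 3347, 3129 and 3630.5 CPM. Homing receptors were lowest at 3 and 7 dpi, where *Ccr2* had 237 and 181 CPM against 395 CPM in Uninjured.

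*Ccr7*, the receptor that guides mature cells to lymph nodes, was found in 1, 1, 3 and 0 cDC1, 5 of 262, with at most 40 UMIs in a cell. A cell with 0 *Ccr7* UMIs may still express it, so these counts do not limit the share of mature cells. Thinned to 1000 UMIs, 1.09% of cDC1 at 3 dpi carried it (0.133 to 3.89), against 0.683% of macrophages (0.186 to 1.74) and 3.13% of cDC2 (1.87 to 4.90). The cDC1 share cannot be told from the macrophage background, although all 5 cells held at least 3 *Ccr7* UMIs. These 5 cells had 707 CPM of *Ccl22*, 1165 CPM of *Cd83* and 395 CPM of *Cd274*, which encodes PD-L1, where the other 257 cDC1 had 0.752, 424 and 19.2 CPM. As the 5 were picked by *Ccr7*, these are values of 5 cells and were not tested.

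Transcripts of other cell types in cDC1 changed between libraries. Mesenchymal genes, such as collagens, summed to 286, 1289, 6735 and 6499 CPM in cDC1, with *Col3a1* leading in Uninjured, *Dcn* at 1 dpi and *Sparc* at 3 and 7 dpi, and to 8228, 1823, 5759 and 17432 CPM in cDC2. At 3 dpi 20 of 184 cDC1 had over 1% of their UMIs from this list, and at 7 dpi 1 cell gave 75.05% of it. Cartilage genes reached 6395 CPM at 7 dpi, of which 1 cell gave 98.2%, and had 0, 0 and 5.33 CPM before, so the 3 of 5 cartilage genes called higher in cDC1 than in cDC2 (*Col2a1*, *Acan* and *Col9a1*) rest on that cell. Neutrophil genes had 1993, 1632, 1237 and 6.46 CPM, of which 1 cell gave 100% in Uninjured, 46.0% at 1 dpi and 94.7% at 3 dpi. T and NK cell genes had 72.9, 50.01, 40.2 and 1105 CPM, and at 7 dpi all of it came from 1 cell. Monocyte and macrophage genes summed to 1409, 1538, 1311 and 1072 CPM, led by *Lyz2*, against 6645, 3486, 2840.3 and 5486 CPM in cDC2. Lists of B cells (200.5, 234, 177 and 149 CPM), plasmacytoid dendritic cells (24.3, 114, 123 and 103), mast cells (42.5, 75.7, 84.0 and 77.5, led by *Kit*), endothelium (0, 24.3, 52.1 and 12.9), muscle (6.07, 8.57, 17.8 and 25.8) and erythroid cells (42.5, 2.86, 1.78 and 6.46) were low throughout. The part of these transcripts in the time course was not tested. Without the cells over 1%, the log2 ratio of the type I interferon list was 1.71 against 1.70 at 1 dpi and -0.35 against -0.66 at 7 dpi.

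*Xcl1* and *Flt3l*, ligands of XCR1 and of the growth factor receptor FLT3, were measured in the other cells of the same libraries. *Xcl1*, the ligand of XCR1, had 657, 472, 342 and 483 CPM in NK cells, of which 140, 500, 833 and 833 were found, and 106, 25.7, 19.3 and 76.8 CPM in T cells. Over all cells of a library *Xcl1* was at 7.01 CPM in Uninjured (6.52 to 7.51) and at 22.5 CPM at 1 dpi (21.6 to 23.5), with 17.7 and 22.1 CPM later. The level over all cells was thus higher in every injured library while the level within NK cells was lower. *Flt3l* was measured over all cells at 17.7 CPM in Uninjured (16.9 to 18.5) and 16.8 at 1 dpi (16.0 to 17.7), and at 10.2 at 3 dpi (9.65 to 10.8) and 5.34 at 7 dpi (4.94 to 5.75).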

How the data were processed

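Droplet-based 3′ single-cell libraries were aligned with STAR and counted by the authors with Cell Ranger 5.0.0 (mm10 and Seurat 3.1.1 also stand in the submitters' processing notes), and the deposited matrices hold whole-number UMI counts per gene and cell, not normalized. Down-sampling is among the study's methods, and no source says if these matrices were made before or after it. The 4 libraries held 112317902, 91146335, 116346301 and 129007669 UMIs in 12031, 11722, 15160 and 23752 cells (Uninjured, 1, 3 and 7 dpi).

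Here the cells were kept up to 10% mitochondrial UMIs and chosen by the rule. The members and the 28 gene lists were chosen with earlier results of these data known. UMIs were summed over cDC1 or cDC2 of each library and scaled to CPM. Levels carry exact Poisson intervals, shares exact Clopper-Pearson intervals, and ratios of libraries exact conditional binomial intervals, all at 95% and for counting error only. A level of 0 was bounded by 3 UMIs over the group. cDC1 and cDC2 were compared with edgeR 4.0.16 (R 4.3.3; TMM, quasi-likelihood test, filter on low counts, library as block, Benjamini-Hochberg adjusted p under 0.05), with DESeq2 1.42.0 as an alternative. The block stands for the same pooled muscles. After removal of the mean of each type, cDC1 and cDC2 of a library deviated together (correlation across 9448 genes of 0.209, 0.495, 0.392 and 0.431 for Uninjured, 1, 3 and 7 dpi). These p-values measure the spread between 4 libraries. Between time points a gene was called when its CPM ratio passed 2 with at least 30 UMIs in the pair. Doublets were scored with scanpy 1.11.5 and kept. The edgeR step and the ratio intervals were tested on simulated data.

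Genes named were the list members, the rule genes, the 10 with the largest fold change in each direction between cDC1 and cDC2 that moved alike in every library, and the 5 with the largest ratio in each direction between successive libraries (at least 50 UMIs in the higher and 5 in the lower library, and in cDC1 of the higher library at least the CPM of all cells). Positions are of GENCODE M21 (GRCm38), to which 99.6% of 32285 identifiers matched, and promoters are of RefSeq (GRCm38.p6). Of 304 list genes, 4 (*Mb21d1*, *Clec7a*, *Mx1* and *Mx2*) are not analysed here, and some list genes are not reported here by name. Alternatives were other limits of the rule, thinning, removal of doublets or of cells with transcripts of other types, other tests and filters, and leaving out each library.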

Additional observations from a re-analysis of the deposited data

Results flagged for a closer look

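Of 33 genes checked for an outlying library, *Cxcr3* and *Fxyd7* stood out, and chance alone marks about 1 in 20 groups of samples. For *Cxcr3* the log2 ratio of cDC1 over cDC2 in Uninjured was 7.21, far from the 3.76 to 4.30 of the other libraries, and cDC2 of that library held 0 UMIs of it, so that value too depends on the added 0.5 UMIs. For *Fxyd7* the log2 ratio at 3 dpi was -6.62 against -2.66 to -2.10 in the others, but cDC1 of every library held 0 UMIs, so these ratios depend on the added 0.5 UMIs and on depth, and only the bound of at least 18.0-fold lower over all libraries can be read.

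Gene lists were checked by a separate rule, to which the rate above does not apply. In 3 cases a list moved over 2-fold one way in cDC1 and over 2-fold the opposite way in cDC2 between the same libraries. These differences were not tested. Mesenchymal genes were 2.17 higher on the log2 scale at 1 dpi than in Uninjured in cDC1 and changed by -2.17 in cDC2. Of the cDC1 UMIs at 1 dpi 1 cell gave 52.4%, and under 4 alternatives the cDC1 value was -0.94 to -3.32, the direction of cDC2. Endothelial genes changed by 1.10 from 1 to 3 dpi in cDC1 and by -1.09 in cDC2, but 1 cell gave 71.6% of the cDC1 UMIs at 3 dpi, and without the leading cell the cDC1 change was -0.46. From 3 to 7 dpi they changed by -2.01 in cDC1, on 2 UMIs at 7 dpi, and by 1.80 in cDC2.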

How the results depend on the processing

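Of the values that answer a comparison, 109 stayed close to the reported value under the alternatives and 44 moved, and of the values of single genes and lists 1035 stayed close, 234 moved, 5 lost their call (*Fxyd7*, *Siglece*, *Cd209c*, *Cadm1* and *Tlr11*) and 9 turned. The cause of these moves was not tested, except that thinning and stricter limits leave fewer cells and transcripts. The alternative without the cell that held most UMIs was chosen after seeing the data.

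With at least 2 receptor UMIs, cDC1 were 0.240, 0.715 and 0.0304% of cells at 1, 3 and 7 dpi and 15.1, 14.6 and 4.70% of conventional dendritic cells. Thinned to 2000 UMIs, they were 0.0444, 0.202 and 0.614% of cells in Uninjured, 1 and 3 dpi and 16.3 and 13.4% of conventional dendritic cells at 1 and 3 dpi, and with a mitochondrial limit of 5% they were 1.52% of cells at 3 dpi.

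Against cDC2, 188 genes were higher and 360 lower with at least 2 receptor UMIs, and 144 and 235 thinned, both in fits of 2 libraries (1 and 3 dpi), the thinned fit over 2634 genes instead of 9448, and 775 were higher without cells over 1% of other types. Without the library block, which the pairing of types within a library calls for, 225 were higher and 309 lower, and 532 of these 534 were also called with it. DESeq2 called 945 genes, 933 of them shared. Leaving out 1 library gave 242 to 491 higher and 365 to 682 lower, with the fewest (242 and 365) without 1 dpi and 269 higher without 3 dpi.

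The log2 ratio of type I interferon genes at 1 dpi (1.70) was 1.94 with the 5% limit, 1.96 thinned, 1.45 without its most abundant gene and 1.98 without the cell that held most of it. At 3 dpi (-0.84) it was -0.64 thinned, -0.96 with cells weighed equally and -0.40 without the most abundant gene. At 7 dpi (-0.66) it was -0.33 with 2 SD limits and doublets removed, -1.17 thinned, -0.35 without cells over 1% of other types and -0.91 without the leading cell.

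Genes over 2-fold higher at 1 dpi (835) were 506 with at least 2 receptor UMIs and 31 thinned, and those lower (87) were 18 thinned. At 3 dpi those higher (543) were 351 with 2 SD limits and doublets removed, 50 thinned and 259 without cells over 1% of other types, and those lower (185) were 35 thinned. At 7 dpi those higher (213) were 35 and those lower (1227) were 107 thinned. *Ccr7* was in 0% of thinned cDC1 at 3 dpi with at least 2 receptor UMIs, and 17.9% of cDC1 at 3 dpi had 2 mitosis UMIs when thinned to 2000.

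These directions turned: *Nfil3* between the types, 0.15 thinned against -0.41; mesenchymal genes at 1 dpi over Uninjured (2.17), -1.04 with 2 SD limits, -0.96 with at least 2 receptor UMIs, -3.32 thinned and -0.94 without cells over 1% of other types; endothelial genes at 3 dpi (1.10), -0.46 without the leading cell; *Fabp5* with at least 2 receptor UMIs, -2.26 against 2.80 at 1 dpi and 2.37 against -1.96 at 3 dpi; and *Usp18* at 3 dpi, 0.40 thinned against -1.27.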
